A study of Mus musculus with 4 samples.

Results

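UDP-glucuronosyltransferases (UGTs) are enzymes of the endoplasmic reticulum that join a sugar, in most cases glucuronic acid taken from UDP-glucuronic acid, to small lipid-soluble molecules, so that these can leave in bile or urine. Genes of the family were followed here across livers of wild-type mice and mice with a mutation of Ezh2. The 10 genes (Ugt1a1, Ugt2a3, Ugt2b1, Ugt2b5, Ugt2b34, Ugt2b35, Ugt2b36, Ugt2b38, Ugt3a1 and Ugt3a2) were found in the deposited tables by their Entrez gene numbers, among 21 UGT genes and 17543 genes listed in any liver. Each was represented by 1 RefSeq transcript. They were chosen as members of the family and not by a cut on their measured level, but with earlier results of these data known.

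The liver is the main site of glucuronidation. Ugt1a1 makes the enzyme that conjugates bilirubin, the breakdown product of haem. The enzymes of the 2B subfamily act on steroids, bile acids and many drugs, and several mouse members are known to be made at different levels in the livers of males and females. The human enzymes of the 3A subfamily use other sugar donors, such as UDP-N-acetylglucosamine, in place of UDP-glucuronic acid.

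RNA was sequenced from 4 livers of the strain C57BL/6. The 2 wild-type livers carried no engineered allele by their labels, and the 2 mutant livers carried the Ezh2 change K307R on both copies. Ezh2 is the subunit of Polycomb repressive complex PRC2 that methylates histone H3. No treatment, age, sex, litter or hour of collection is given in the labels, nor how the mutant line was made or that replicates were separate animals, so each p-value reflects only the spread among these 4 samples, which may be technical. Replicate numbers are 1 and 2 in each genotype.

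Before the results, a fact about the livers bears on each of them. Reads of Xist, which is made from the inactive X chromosome of females, numbered 6 and 6 for the wild type against 6172 and 11201 for the mutants. The Y-linked genes Ddx3y, Eif2s3y, Uty and Kdm5d summed to 2732 and 2551 reads for the wild type against 0 and 0 for the mutants. Genotype and sex-chromosome pattern therefore cannot be told apart in any comparison below. Libraries held 18602928 to 20044832 expected counts. The 10 hepatocyte markers, among them albumin, summed to 163347 to 170565 CPM (counts scaled to library size) in wild-type livers and 149012 to 149271 in mutant livers. Markers of other cells were low. The 8 Kupffer cell markers summed to 203 to 246 CPM in wild-type livers and 257 to 384 in mutant livers, the 8 endothelial markers to 73.7 to 104 and 109 to 123, the 8 stellate cell markers to 154 to 266 and 244 to 317, and the 6 bile duct markers to 54.5 to 70.4 and 32.0 to 60.1. Of these markers 2 were called by edgeR, against 2.86% of all genes. Both were of stellate cells and in opposite directions, with Dcn at a log2 fold change of 1.36 (adjusted p = 0.0348) and Col1a1 at -2.48 (0.0365). Both mutant livers were above both wild-type livers for 4 of the 8 Kupffer cell markers and below both for 0. For the 10 hepatocyte markers these numbers were 0 and 4. They were 4 and 2 for the 8 stellate cell markers and 3 and 1 for the 8 endothelial markers. For the 5 bile duct markers tested they were 2 and 2, and for 6 lymphocyte markers 1 and 2. Among all genes they were 25.2% and 23.4%. Of 6 kidney markers, Umod, Slc34a1, Kap and Aqp2 were listed in no liver, and the other two summed to 0.212 to 0.984 CPM. Of 6 pancreas and fat markers, 4 were listed in no liver and Cela1 accounted for nearly all of the 4.30 to 11.3 CPM. The 6 lymphocyte markers in the tables summed to 3.58 to 6.86 CPM. The part that differences in cell types had in the UGT values was not tested.

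The genes of the family differ in how alike they are, and this sets how far each level can be read alone. The stretch of coding sequence shown here encodes the region of the family signature, which lies in the part of the enzyme that binds the sugar nucleotide. The bases are spliced from adjoining exons of GENCODE transcripts (build GRCm38, the assembly of mm10) and run 5′ to 3′ along the gene. Ugt2b5 (chr5:87127791-87128345, minus strand) is the reference in lower case, and capitals mark each base that differs from it in Ugt2b38 (chr5:87411832-87412385, minus strand), Ugt2b36 (chr5:87080983-87081534, minus strand), Ugt2b1 (chr5:86919363-86919629, minus strand), Ugt1a1 (chr1:88215858-88216244, plus strand), Ugt3a1 (chr15:9310684-9311855, plus strand) and Ugt3a2 (chr15:9365353-9367354, plus strand).
Ugt2b5: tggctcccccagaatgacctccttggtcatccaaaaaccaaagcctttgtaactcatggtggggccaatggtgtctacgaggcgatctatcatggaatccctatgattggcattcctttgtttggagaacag
Ugt2b38: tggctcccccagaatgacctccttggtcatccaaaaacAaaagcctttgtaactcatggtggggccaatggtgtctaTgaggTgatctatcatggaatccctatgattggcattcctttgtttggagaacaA
Ugt2b36: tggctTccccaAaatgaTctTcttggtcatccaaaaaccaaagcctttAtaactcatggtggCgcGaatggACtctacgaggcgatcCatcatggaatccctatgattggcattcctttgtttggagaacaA
Ugt2b1: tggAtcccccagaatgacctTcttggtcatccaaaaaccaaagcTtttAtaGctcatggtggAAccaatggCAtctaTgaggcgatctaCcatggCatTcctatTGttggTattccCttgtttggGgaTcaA
Ugt1a1: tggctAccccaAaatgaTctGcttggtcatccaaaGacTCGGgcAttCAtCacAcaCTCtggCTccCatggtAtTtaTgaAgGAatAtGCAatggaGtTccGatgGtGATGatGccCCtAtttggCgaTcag
Ugt3a1: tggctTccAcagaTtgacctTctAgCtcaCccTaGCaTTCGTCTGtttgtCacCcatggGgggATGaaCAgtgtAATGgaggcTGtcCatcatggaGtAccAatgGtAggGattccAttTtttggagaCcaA
Ugt3a2: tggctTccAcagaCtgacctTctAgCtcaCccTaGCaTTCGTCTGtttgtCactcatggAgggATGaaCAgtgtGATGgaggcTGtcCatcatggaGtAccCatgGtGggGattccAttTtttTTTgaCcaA
Over these 132 bases Ugt2b38 differed from Ugt2b5 at 4 positions, Ugt2b36 at 11, Ugt2b1 at 20, Ugt1a1 at 44, Ugt3a1 at 43 and Ugt3a2 at 45. The translated window of Ugt2b38 did not match the signature pattern that the other 9 genes matched, and was taken at the same residues as in Ugt2b5.

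Over the whole coding sequence, Ugt2b5 and Ugt2b38 were identical at 1543 of 1590 bases, or 97.0%. Ugt3a1 and Ugt3a2 were 93.2% identical. The 15 pairs within the 2B subfamily ranged from 71.8% to 97.0%, and pairs of different subfamilies from 51.8% to 68.4%. Sharing of short stretches was counted too, since RSEM, the counting program named in the submitters' processing notes, divides reads that match several transcripts. Of all 100-base stretches of the Ugt2b5 transcript, 24.7% occurred in another UGT transcript, and 24.2% of those of Ugt2b38. For Ugt1a1 the share was 57.2%, because the genes of the Ugt1 locus each have a first exon of their own and share the rest. For Ugt2b1, Ugt2b35, Ugt2b36, Ugt3a1 and Ugt3a2 it was 0%, for Ugt2b34 0.407% and for Ugt2a3 0.595%. With stretches of 50 bases, the shares were 41.7% for Ugt2b5, 37.4% for Ugt2b38, 58.2% for Ugt1a1, 8.88% for Ugt3a1, 8.55% for Ugt3a2, 3.77% for Ugt2a3, 2.07% for Ugt2b34, 0.326% for Ugt2b36 and 0% for Ugt2b1 and Ugt2b35. The read length, which decides between these, is not given in the sources. All stretches came from GENCODE transcripts. That of Ugt1a1 had 2224 bases, against 3229 in the RefSeq transcript that was counted, so the share of the counted transcript may differ.

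**Figure D1:**
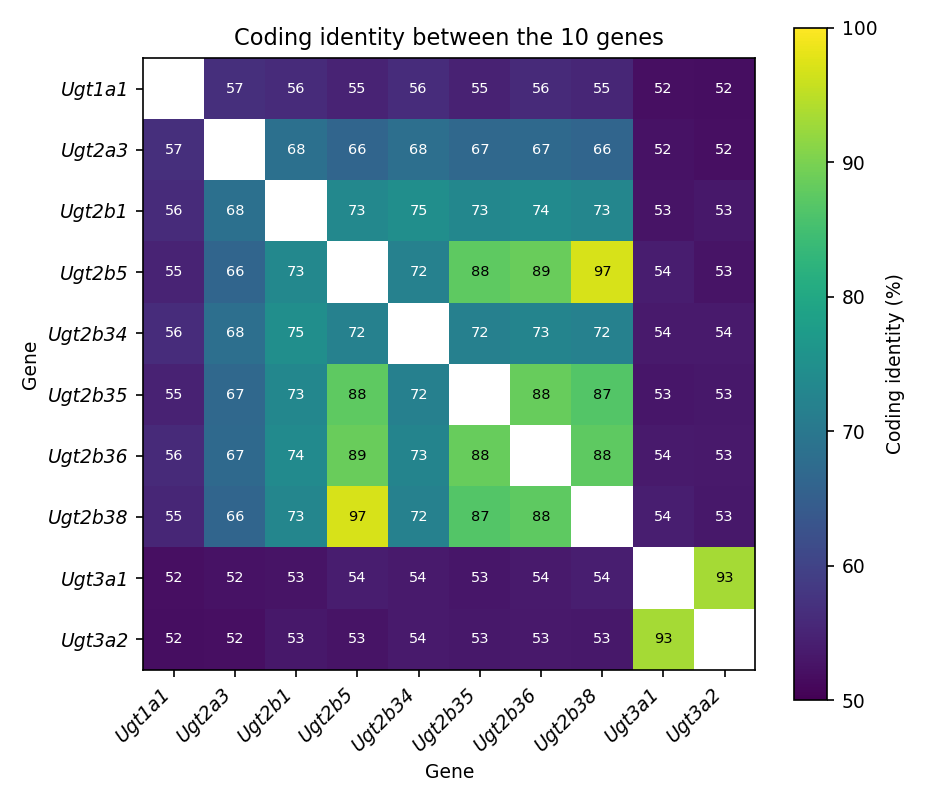
Percent of identical bases between the coding sequences of each pair of the 10 genes, in global alignments of GENCODE transcripts (rows and columns are genes, colour and number are percent). Ugt2b5 and Ugt2b38 are the closest pair, and the pair of 3A genes is the next.

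Levels that can be compared between genes are FPKM, the authors' values scaled to transcript length and depth. Ugt2b5 (chromosome 5, 87124946 to 87140340, mm10) had the highest FPKM of the 10 genes in every liver, and Ugt2b36 (87065927 to 87092555) the second highest. Ugt2b5 was at 771.5 and 333 FPKM in wild-type livers and at 522 and 382 in mutant livers. Ugt2b36 was at 440 and 264 FPKM in wild-type livers and at 344 and 281 in mutant livers. The first wild-type liver was the highest for both genes, the second was the lowest, and the mutant livers lay between them.

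Below these, the order of levels depended on the liver. Ugt2b1 (86916639 to 86926503) was the third in both wild-type livers, at 413 and 164 FPKM, and the seventh in both mutant livers, at 110 and 109.7 FPKM. Ugt1a1 (chromosome 1, 88211959 to 88220002) was the seventh and the fifth in wild-type livers, at 121 and 120 FPKM, and the third in both mutant livers, at 285 and 281 FPKM. Ugt2b34 (chromosome 5, 86889770 to 86906937; 130 to 174 FPKM over the 4 livers), Ugt2a3 (87324972 to 87337195; 113 to 154 FPKM) and Ugt3a2 (chromosome 15, 9335551 to 9370955; 81.1 to 187 FPKM) had ranges that overlapped. Ugt2b35 (chromosome 5, 87000860 to 87013274) was lower, at 38.8 to 66.6 FPKM. Ugt3a1 (chromosome 15, 9279822 to 9315038; 8.55 to 60.6 FPKM) and Ugt2b38 (chromosome 5, 87409939 to 87424203; 0.12 to 36.8 FPKM) were lowest in wild-type livers, and Ugt2b38 was lowest by far in mutant livers.

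**Figure D2:**
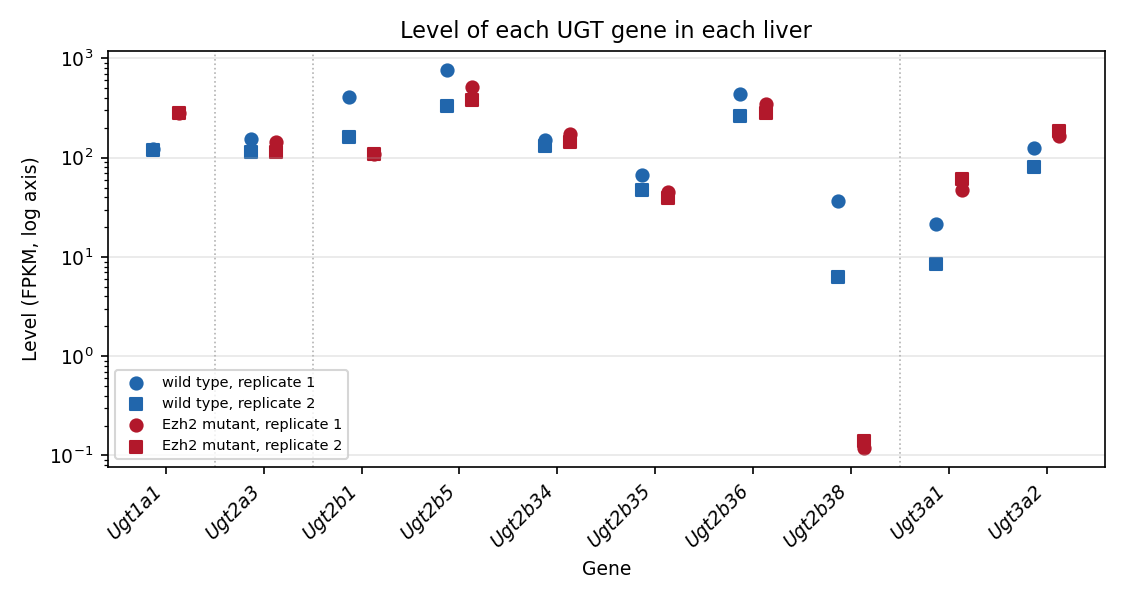
Level of each gene in each liver in FPKM on a log axis, with wild-type livers in blue, mutant livers in red, circles for replicate 1 and squares for replicate 2. Ugt2b38 lies at 36.8 and 6.24 FPKM in wild-type livers and at 0.12 and 0.14 in mutant livers, while the other 9 genes stay between 8.55 and 771.5 FPKM in all 4 livers.

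Between the genotypes, 1 of the 10 genes fell in the mutant livers and 0 rose, by edgeR's quasi-likelihood test with a Benjamini-Hochberg adjusted p under 0.05 over 12837 genes. Among all genes tested, 1.47% were called lower and 1.39% higher, 2.86% in all. At an unadjusted p under 0.05, 2 of the 10 were lower and 2 higher, against 16.8% of all genes in either direction. By DESeq2, 1 was lower and 2 were higher, against 5.37% of all genes in either direction. Both mutant livers were above both wild-type livers for 3 of the 10 genes (25.2% of all genes) and below both for 3 (23.4% of all genes). That left 6 of 10 without overlap, against 48.6% of all genes. The median log2 fold change of the 10 was -0.22, against 0.01 over all genes tested. All 10 passed the filter on low counts. In whole liver, fewer cells of a type and less RNA per cell cannot be told apart.

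The gene that fell was Ugt2b38. Its reads numbered 1348 and 237 for the wild type against 4.08 and 5.13 for the mutants, or 78.0 and 11.2 CPM against 0.212 and 0.256 CPM. Both mutant livers were far below both wild-type livers, and the wild-type livers themselves differed 6.95-fold. The log2 fold change was -7.53 (SE 1.09, 95% interval -10.05 to -5.01, adjusted p = 0.0157 by edgeR), from means of 44.6 ± 47.2 CPM to 0.234 ± 0.0308 CPM (SD over 2 livers each). Leaving out wild-type replicate 1 gave -5.54, and leaving out replicate 2 gave -8.34. The call was kept whichever liver was left out, but was not made by limma-voom (adjusted p = 0.125) or by limma on log2(FPKM + 1) (value -3.87, adjusted p = 0.0574).

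Because Ugt2b38 and Ugt2b5 are so alike, their reads were also summed with those of Ugt2b37, another close copy that is 94.7% identical to Ugt2b5 in coding sequence. Of the reads of these 3 genes, Ugt2b38 held 3.16% ± 1.91 in wild-type livers and 0.0297% ± 0.0110 in mutant livers (SD, n = 2 each), and Ugt2b5 held 96.1% ± 1.70 and 99.5% ± 0.0682. The sum of the 3 genes was 1729 and 618 CPM in wild-type livers and 985 and 700 CPM in mutant livers. The mutant livers lay within the range of the wild type, with a log2 fold change of -0.48 (SE 0.46, adjusted p = 0.662 by edgeR). Leaving out wild-type replicate 1 gave 0.45, and leaving out replicate 2 gave -1.04. Ugt2b5 alone had a log2 fold change of -0.42 (95% interval -1.46 to 0.62, adjusted p = 0.707 by edgeR). How far RSEM moved reads between Ugt2b5 and Ugt2b38 was not tested.

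The bases before the start of transcription of these genes are alike as well. They are shown for Ugt2b5 (chr5:87140341-87140590, minus strand), which was not called, and Ugt2b38 (chr5:87424204-87424453, minus strand), which fell, beside Ugt2b1 (chr5:86926504-86926753, minus strand). Each is the 250 bases before the start, 5′ to 3′, from RefSeq on GRCm38.p6, and capitals mark matches to GTTA, any 5 bases, then TAAC, a palindromic pattern.
Ugt2b5: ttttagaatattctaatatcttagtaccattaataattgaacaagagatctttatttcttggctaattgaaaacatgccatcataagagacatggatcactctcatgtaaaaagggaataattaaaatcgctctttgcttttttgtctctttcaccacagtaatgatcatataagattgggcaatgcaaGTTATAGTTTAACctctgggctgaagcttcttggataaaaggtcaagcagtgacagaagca
Ugt2b38: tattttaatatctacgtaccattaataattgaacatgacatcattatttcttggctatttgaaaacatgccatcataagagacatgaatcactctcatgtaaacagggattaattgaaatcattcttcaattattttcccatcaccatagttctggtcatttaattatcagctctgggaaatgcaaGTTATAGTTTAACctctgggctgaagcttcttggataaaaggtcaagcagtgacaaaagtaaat
Ugt2b1: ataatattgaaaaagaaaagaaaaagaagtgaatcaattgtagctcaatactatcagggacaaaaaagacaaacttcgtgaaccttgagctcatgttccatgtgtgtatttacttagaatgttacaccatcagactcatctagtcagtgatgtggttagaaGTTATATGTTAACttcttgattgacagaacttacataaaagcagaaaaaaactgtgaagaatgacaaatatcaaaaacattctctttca
The upstream bases of Ugt2b5 and Ugt2b38 were 81.5% identical in a global alignment, against 47.7% for Ugt2b5 and Ugt2b1. The same 13 letters, GTTATAGTTTAAC, lay at -61 to -49 from the start in Ugt2b5 and at -64 to -52 in Ugt2b38.

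RefSeq promoters from 250 bases before to 50 after the start were matched for 9 of the 10 genes, all but Ugt3a2. The palindromic pattern, which reads the same on both strands and was chosen after the promoters were seen, occurred in 7 of the 9, namely the 6 genes of the 2B subfamily and Ugt3a1, and in 0.340% of 27025 promoters of the same length. The letters TTCNNNGAA, the pattern bound by STAT factors, occurred in 0 of the 9 and in 8.47% of all promoters. Genes with the palindromic pattern included Ugt2b38, which fell, and Ugt2b34, whose log2 fold change was 0.09.

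The other 2B genes were not called. Ugt2b1 was at 1189 and 400 CPM in wild-type livers and at 280 and 271 CPM in mutant livers. The mutant livers lay close together and below both wild-type livers, which differed 2.97-fold. Its log2 fold change was -1.53 (SE 0.46, 95% interval -2.59 to -0.47, adjusted p = 0.139 by edgeR). It was -0.54 without wild-type replicate 1 and -2.12 without replicate 2 of that genotype, where it was called (adjusted p = 4.00e-04 by edgeR), as it was with no filter on low counts (0.0243). Ugt2b35 was at 252 and 152 CPM in wild-type livers and at 152 and 126 CPM in mutant livers, with the second wild-type liver and the first mutant liver nearly level. Its log2 fold change was -0.54 (95% interval -1.19 to 0.11). Ugt2b36 had one of -0.29 (-1.09 to 0.51), with 930 and 474 CPM against 641 and 509, and the genotypes overlapped. Ugt2b34 had one of 0.09 (-0.52 to 0.69), with 522 and 380 CPM against 529 and 429, and they overlapped too.

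Summed over its 6 genes, the 2B subfamily had 4612 and 2019 CPM in wild-type livers and 2582 and 2031 CPM in mutant livers. Its log2 fold change was -0.52 (SE 0.40, 95% interval -1.44 to 0.39, adjusted p = 0.571 by edgeR), and it was 0.19 without wild-type replicate 1 and -1.005 without replicate 2 of that genotype. Within the subfamily, shares of the summed FPKM show the make-up without the overall level. Ugt2b1 made up 19.6% ± 3.30 of it in wild-type livers and 10.3% ± 1.60 in mutant livers, Ugt2b38 1.31% ± 0.918 and 0.0123% ± 0.00325, and Ugt2b5 38.1% ± 4.08 and 41.8% ± 2.67 (SD, n = 2 each). With 2 livers against 2, the smallest two-sided p of an exact permutation test is 0.333, so none was run on shares.

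Ugt2a3, whose human counterpart conjugates bile acids, was at 366 and 228 CPM in wild-type livers and 302 and 230 in mutant livers. The genotypes overlapped, with a log2 fold change of -0.16 (95% interval -0.83 to 0.51, adjusted p = 0.836 by edgeR). It is the single gene of the 2A subfamily among the 10.

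Ugt1a1 was higher in both mutant livers, at 918 and 877 CPM, than in both wild-type livers, at 441 and 371 CPM. Livers of a genotype lay close together, so that this gene, with a smaller difference than Ugt2b1, stood further outside its spread. The log2 fold change was 1.14 (SE 0.24, 95% interval 0.59 to 1.70), from 406 ± 49.3 to 898 ± 29.4 CPM (n = 2 each). Its edgeR adjusted p of 0.0523 missed the threshold. It passed with upper-quartile scaling (0.0453), total-count scaling (0.0281), DESeq2 (4.16e-05), limma-voom (0.0431), limma on log2(FPKM + 1) (0.0295) and log2(FPKM + 0.1) (0.0289), no filter (0.0175) and without wild-type replicate 1 (0.0293).

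The other transcripts of the Ugt1 locus, which are not among the 10 but share their last exons with Ugt1a1, did not all go the same way. Ugt1a5 rose, from 80.7 and 81.4 CPM in wild-type livers to 400 and 259 CPM in mutant livers, a log2 fold change of 2.02 (SE 0.27, adjusted p = 0.0116 by edgeR). Ugt1a6b, whose enzyme acts on flat phenols, was at 351 and 317 CPM against 280 and 211 (log2 fold change -0.44, adjusted p = 0.412 by edgeR), and Ugt1a6a at 71.2 and 55.4 against 46.1 and 46.3 (-0.45, adjusted p = 0.303). Of the reads of the 8 genes of the locus, Ugt1a1 held 42.4% ± 0.796 in wild-type livers and 56.4% ± 2.97 in mutant livers, Ugt1a5 8.52% ± 0.926 and 20.5% ± 4.49, and Ugt1a6b 35.0% ± 1.06 and 15.3% ± 1.72 (SD, n = 2 each). The 8 genes together had a log2 fold change of 0.74 (95% interval 0.16 to 1.32, adjusted p = 0.187 by edgeR). Of the 12 other UGT genes listed for this comparison, 11 were in the tables and 7 had enough reads to be tested. Ugt1a5 was the 1 that rose, 0 fell, and the median log2 fold change of the 7 was -0.44. Among all genes, 1.39% were called higher and 1.47% lower.

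The 3A genes were higher in both mutant livers than in both wild-type livers. Ugt3a1 was at 54.2 and 18.3 CPM in wild-type livers and at 105 and 131 CPM in mutant livers, a log2 fold change of 1.71 (SE 0.44, 95% interval 0.69 to 2.73, adjusted p = 0.0931 by edgeR). Ugt3a2 was at 307.3 and 170 CPM in wild-type livers and at 362 and 395 CPM in mutant livers, a log2 fold change of 0.67 (SE 0.31, 95% interval -0.04 to 1.38, adjusted p = 0.326 by edgeR). Neither passed the threshold in this fit. The wild-type livers differed 2.96-fold in Ugt3a1 and 1.81-fold in Ugt3a2, and the mutant livers by much less. Ugt3a1 was called by DESeq2 (6.04e-04), with no filter (0.00727) and without either wild-type liver (log2 fold change 2.69 without replicate 1 and 1.12 without replicate 2). Ugt3a2 was called without wild-type replicate 1 (1.16, adjusted p = 0.0447) and stood at 0.30 without wild-type replicate 2 (adjusted p = 0.723). The sum of the pair had a log2 fold change of 0.86 (95% interval 0.10 to 1.61, adjusted p = 0.238 by edgeR), which was 1.40 without wild-type replicate 1 (called, adjusted p = 0.0189) and 0.45 without replicate 2 of that genotype (0.538). Ugt3a1 made up 12.1% ± 3.63 of the FPKM of the pair in wild-type livers and 23.3% ± 1.69 in mutant livers (SD, n = 2 each).

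**Figure D3:**
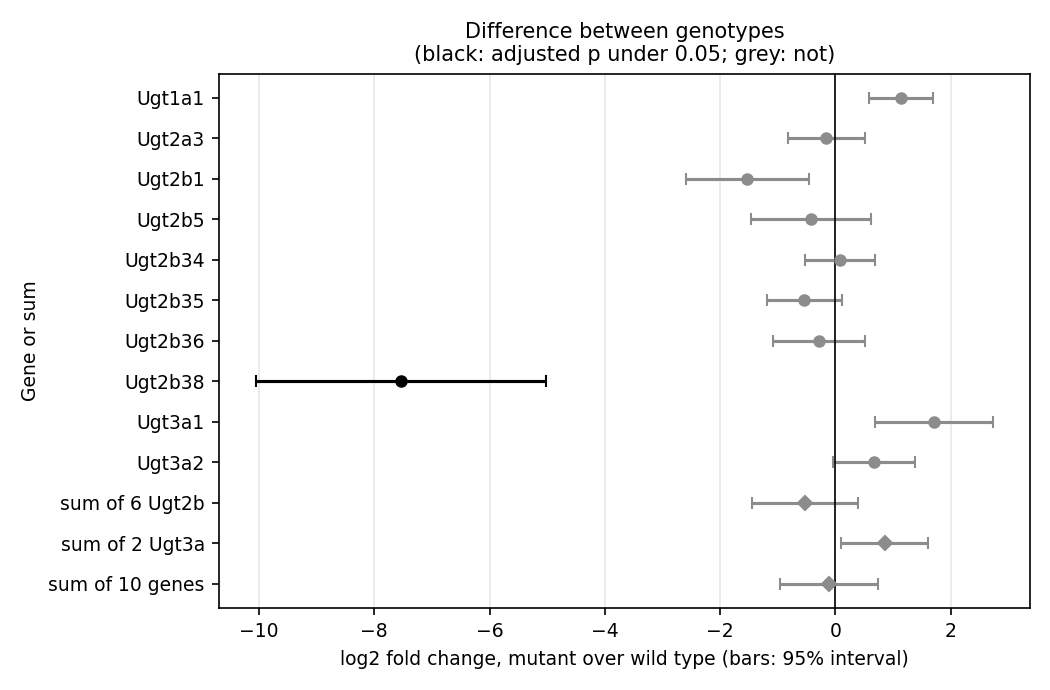
Log2 fold change of mutant over wild-type livers for each gene (circles) and for sums of genes (diamonds), with 95% intervals as bars, by edgeR's quasi-likelihood fit. Ugt2b38, at -7.53, is the only gene in black, which marks an adjusted p under 0.05, and the sum of the 10 genes lies at -0.11.

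Summed, the 10 genes had 5781 and 2807 CPM in wild-type livers and 4271 and 3664 CPM in mutant livers. Both mutant livers lay between the wild-type livers. The log2 fold change was -0.11 (SE 0.37, 95% interval -0.96 to 0.73, adjusted p = 0.913 by edgeR), and it was 0.50 without wild-type replicate 1 and -0.55 without replicate 2 of that genotype.

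The wild-type livers differed from each other in this family more than the mutant livers did. In CPM, which carry the TMM factors, wild-type replicate 1 was above replicate 2 for 10 of the 10 genes, against 49.3% of all genes tested. It was at least 1.5-fold above it for 8 of the 10, against 7.43% of all genes. The ratio ran from 1.19 for Ugt1a1 to 6.95 for Ugt2b38, with a median over all genes of 0.994. These counts depend on the scaling. Ugt1a1 had 7624 and 7845 reads and 121 and 120 FPKM in wild-type replicates 1 and 2. Ugt2a3 (154 and 113 FPKM) and Ugt2b35 (66.6 and 47.4 FPKM) fell short of 1.5-fold in FPKM. Between the mutant livers the ratio of replicate 1 to replicate 2 ran from 0.804 for Ugt3a1 to 1.41 for Ugt2b5. The fold changes of most members therefore moved with the wild-type liver left out, as the plot of fold changes with each liver left out shows. The sign turned for Ugt2b5 (0.48) and Ugt2b36 (0.28) without wild-type replicate 1, for Ugt2a3 without wild-type replicate 1 (0.22) or mutant replicate 2 (0.03), and for Ugt2b34 without wild-type replicate 2 (-0.13) or mutant replicate 1 (-0.07).

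**Figure D4:**
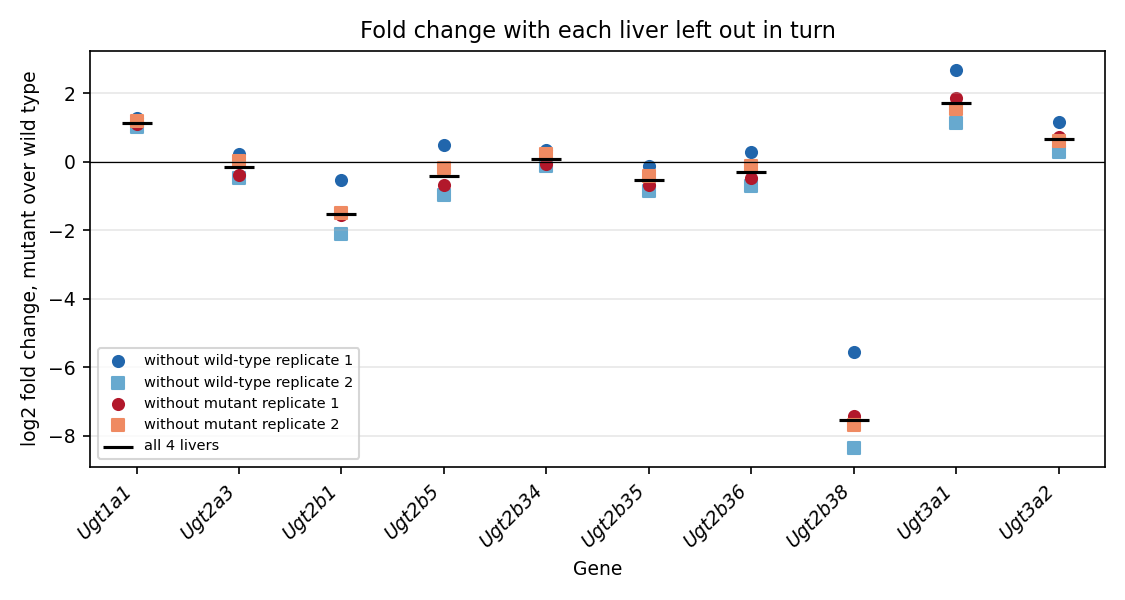
Log2 fold change of each gene with all 4 livers (black bars) and with 1 liver left out (blue shades for wild-type livers, red shades for mutant livers; circles for replicate 1, squares for replicate 2). Values for Ugt1a1 stay between 1.02 and 1.27, and those for Ugt2b38 run from -8.34 to -5.54.

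Genes with the pattern most like that of Ugt2b38 over the 4 livers were found by the root mean square difference of log2 CPM, each centred on its own mean, among 11797 genes. These were Ces2b, which encodes a carboxylesterase, with 9.43 and 0.805 CPM in wild-type livers and 0 and 0 in mutant livers (difference 0.271), then Gm4956 with 14.2 and 5.44 against 0.106 and 0.102 CPM (0.625), and Cyp2d9, a cytochrome P450 known for its high level in male mouse liver, with 1288 and 411 against 15.1 and 21.9 CPM (0.854). The order of the livers in these genes follows from how they were chosen. Ces2b, whose distance depends on the 0.5 reads added to each count, was not called (adjusted p = 0.0682 by edgeR), although it was without either wild-type liver (0.0381 without replicate 1 and 1.63e-06 without replicate 2).

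Genes that supply the sugar donor did not pass the test. Of 6 genes of UDP-glucuronate supply, 0 rose and 0 fell by edgeR, against 2.86% of all genes called in either direction. At an unadjusted p under 0.05 was 1 of the 6, against 16.8% of all genes. The median log2 fold change was -0.33, against 0.01 over all genes. Ugdh, the dehydrogenase that makes UDP-glucuronic acid, was at 147 and 187 CPM in wild-type livers and 137 and 91.9 in mutant livers (log2 fold change -0.55, 95% interval -1.14 to 0.05, adjusted p = 0.335 by edgeR). Pgm2, of the phosphoglucomutase family, had a log2 fold change of -1.02 (adjusted p = 0.120 by edgeR), at 7.06 and 8.95 CPM against 4.56 and 3.32. Pgm1, of the same family, was far more abundant, at 239 and 216 CPM in wild-type livers and 240 and 241 in mutant livers. Its log2 fold change was 0.08 (adjusted p = 0.888 by edgeR). Slc35d1, which carries UDP-glucuronic acid into the endoplasmic reticulum, had one of -0.29 (0.537).

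Of 7 genes that release or carry glucuronides, 0 rose and 0 fell by edgeR, against 2.86% of all genes called in either direction. At an unadjusted p under 0.05 were 4 of the 7, against 16.8% of all genes (median log2 fold change -0.31). Slco1a1, an organic anion uptake transporter, was at 841 and 310 CPM in wild-type livers and at 44.0 and 125 CPM in mutant livers, without overlap. Its log2 fold change of -2.77 (SE 0.60, adjusted p = 0.0557 by edgeR) missed the threshold, and it was called with no filter (0.00131) and without wild-type replicate 1 (-1.87), wild-type replicate 2 (-3.32) or mutant replicate 2 (-3.71). Abcg2, an efflux pump of the bile canaliculus, had one of -1.41 (adjusted p = 0.0802). It was -0.74 without wild-type replicate 1 (adjusted p = 0.132) and -1.87 without replicate 2 of that genotype (3.67e-04), and was called by DESeq2 (0.00141) and with no filter (0.00745). Abcc3, which exports glucuronides to the blood, had a log2 fold change of 0.73 (0.228).

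Transcription factors known to act on UGT genes were mostly not called. Of 15 regulators of drug metabolism and hepatocyte identity, 1 rose and 0 fell (median 0.12), against 1.39% and 1.47% of all genes. Nr1i3, the receptor CAR, which induces Ugt1a1 and other drug metabolism genes, rose from 53.3 and 50.1 CPM in wild-type livers to 94.2 and 143 CPM in mutant livers, a log2 fold change of 1.20 (SE 0.24, adjusted p = 0.0441 by edgeR). The call was lost without wild-type replicate 2 (adjusted p = 0.0626) or mutant replicate 2 (0.121). Foxa3 had one of -0.88 (adjusted p = 0.129), which was called by DESeq2 (0.0401), with no filter (0.0478) and without wild-type replicate 1 (0.0378), but leaving out wild-type replicate 2 gave -0.64, and leaving out mutant replicate 1 gave -0.62. Foxa2 had one of 0.52 (0.290).

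Genes of growth hormone signalling were followed too. Of 14 growth hormone and sex hormone regulators, 3 rose, 0 fell and 11 were not called by edgeR (median log2 fold change 0.62). Among all genes tested, 1.39% were called higher. The genes given here are from those that rose. Prlr, the prolactin receptor, rose from 108 and 164 CPM in wild-type livers to 527 and 621 CPM in mutant livers, a log2 fold change of 2.08 (SE 0.28, adjusted p = 0.0122 by edgeR). Stat5a, a transcription factor downstream of growth hormone and prolactin, rose from 8.56 and 7.19 CPM to 15.2 and 21.7 CPM, a log2 fold change of 1.23 (SE 0.25, adjusted p = 0.0450 by edgeR). The call of Stat5a was lost without wild-type replicate 2 (adjusted p = 0.0639) or mutant replicate 2 (0.185). These rises coincided with the sex-chromosome pattern of the livers, and the share of that pattern in them cannot be told apart from genotype.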

How the data were processed

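RNA of 4 livers had been extracted with TRIzol and made into libraries by a BGI protocol, per the labels. RSEM, HISAT, Bowtie2 and mm10 appear, per the submitters' processing notes, with no version. For their order, the read length and the use of strand, details were not given in the sources used here. Deposited tables, 1 per liver, list RefSeq transcripts. The expected counts are RSEM's estimated counts, not normalized, per the file headers. The authors' FPKM column, named so per the file headers, is scaled to transcript length and depth and starts at 0.01. Transcripts missing from a table were set to 0.

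Expected counts were summed per gene over 17543 genes and rounded. Gene names and positions were taken from NCBI RefSeq's table for GRCm38.p6, the assembly of mm10, by Entrez number, which named 17502 genes. edgeR 4.0.16 (R 4.3.3) was run with TMM factors (0.896 to 1.055), filterByExpr and a model of genotype alone, which leaves 2 residual degrees of freedom. To these the quasi-likelihood fit adds prior degrees of freedom, estimated from the spread over all genes. Tests and intervals use the total. P-values were adjusted by Benjamini-Hochberg across 12837 genes. CPM use TMM library sizes, standard errors were derived from fold change and F statistic, and 95% intervals from that error and the fit's degrees of freedom. The fit was tested on simulated counts. Sums of genes replaced their members in the same table before the fit, and sums with other UGT genes were tried too. Other settings were DESeq2 1.42.0, limma 3.58.1 (voom, and trend with pseudocounts of 1 and 0.1 on the log2 FPKM scale, for genes of at least 1 FPKM), other scalings and filters, the replicate block and each liver left out. Without a liver, the lone liver of its genotype is assumed to vary like the others. Coding sequences were aligned with Biopython 1.88.

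The 10 genes and all lists were chosen with earlier results of these data known. All 10 are named, and from each pathway list the 3 genes with the smallest p, some of which are not reported here. The sum with Ugt2b37, the palindromic motif and the naming of Pgm1 were chosen after their values were seen. So were the transcripts of the Ugt1 locus described one by one and the growth hormone genes of the closing section. Counts of replicate livers were compared by chi-square, which averaged 88.6 a gene for wild-type and 48.4 for mutant livers, far above sampling noise. Genes that share sequence or overlap on either strand are uncertain one by one.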

Additional observations from a re-analysis of the deposited data

How the results depend on the processing

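The number of the 10 genes called lower was 1 in the reported fit, 0 with limma-voom and with limma on log2(FPKM + 1), and 2 with no filter, and ranged from 1 to 2 with a liver left out. The number called higher was 0 in the reported fit, 1 with upper-quartile scaling, total-count scaling, limma-voom and limma on log2(FPKM + 1) or log2(FPKM + 0.1), 2 with DESeq2 and with no filter, and ranged from 0 to 3 with a liver left out. The genes called higher were Ugt1a1 or Ugt3a1 or both, and Ugt3a2 too without wild-type replicate 1, and those called lower were Ugt2b38 and, with no filter or without wild-type replicate 2, Ugt2b1. The 1A value, which is Ugt1a1 alone, passed the threshold with upper-quartile scaling (1.18), total-count scaling (1.23), DESeq2 (1.13), limma-voom (1.15), limma on log2(FPKM + 1) (1.22) and log2(FPKM + 0.1) (1.23) and no filter (1.14), and ranged from 1.02 to 1.27 with a liver left out. The sum of the 10 genes turned from -0.11 to 0.0020 with total-count scaling, 0.0047 with limma on log2(FPKM + 1) and 0.0048 on log2(FPKM + 0.1). With a liver left out, that sum ranged from -0.55 to 0.50, the 2B sum from -1.005 to 0.19, the 3A sum from 0.45 to 1.40, Ugt2a3, the 2A value, from -0.46 to 0.22, the sum of Ugt2b5, Ugt2b37 and Ugt2b38 from -1.04 to 0.45, Ugt2b5 from -0.97 to 0.48, Ugt2b34 from -0.13 to 0.33, Ugt2b36 from -0.70 to 0.28 and Hmox1 from -0.022 to 0.79. Without mutant replicate 2, Ugt2a3 was at 0.027, and without mutant replicate 1, Ugt2b34 was at -0.072. The rises of Nr1i3 and Stat5a were not called by limma-voom (adjusted p = 0.0539 and 0.0619) or limma on either FPKM scale. The cause of these shifts was not tested.

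The labels do not say that replicate numbers mark a shared animal or day, and deviations of same-numbered livers had a correlation of -0.0027 over genes. With the replicate block, 1 of the 10 genes was called lower and 0 higher, and Ugt2b38 was at -7.30 (adjusted p = 0.00257 by edgeR), while Nr1i3 (0.0519) and Stat5a (0.0664) were no longer called. The number of all genes called was 166 higher and 181 lower, against 178 and 189 without it. With 2 livers a genotype, differences of the size of the wild-type spread cannot be resolved.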

Other observations

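Genes that use glucuronate or make the substrate of Ugt1a1 showed no calls. Of 6 tested genes of glucuronate use, 0 rose and 0 fell by edgeR, against 2.86% of all genes called in either direction. At an unadjusted p under 0.05 were 2 of the 6, against 16.8% of all genes, and the median log2 fold change was -0.06. Dcxr, a xylulose reductase, had one of 0.69 (adjusted p = 0.162 by edgeR), Uxs1, which makes UDP-xylose from UDP-glucuronic acid, one of -0.57 (0.296) and Rgn, of the vitamin C pathway, one of 0.34 (0.653). Of 4 genes of bilirubin formation, 0 rose and 0 fell (0 at an unadjusted p under 0.05), with a median of -0.01. Hmox1, the inducible haem oxygenase, was at 13.1 and 21.8 CPM in wild-type livers and 28.2 and 17.2 in mutant livers, and the genotypes overlapped (log2 fold change 0.38, adjusted p = 0.614 by edgeR).

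The wild-type livers, which differed across the UGT family, also differed in some genes that respond to pulses of growth hormone, chosen here after their values were seen. Of all genes tested, 21.3% were at least 1.5-fold apart between these livers in either direction. Bcl6, a repressor that is higher in male liver, was at 77.5 CPM in wild-type replicate 1 and 11.2 CPM in replicate 2. Socs2 was at 9.32 and 63.0 CPM, Cish at 5.03 and 18.2 CPM, and Cux2, a factor of female liver, at 0.521 and 8.14 CPM in the same livers. Ugt2b38 was at 78.0 and 11.2 CPM in them. Socs3 of the same list was nearly level, at 4.86 and 4.35 CPM, and Onecut1 was at 3.18 and 11.2 CPM. In mutant replicates 1 and 2, Bcl6 was at 21.2 and 22.1 CPM and Cish at 9.92 and 11.3 CPM, while Socs2 was at 34.3 and 62.4 CPM, Cux2 at 46.8 and 15.0 CPM, Onecut1 at 3.13 and 14.9 CPM and Socs3 at 3.71 and 5.37 CPM. The part of these differences in the UGT values was not tested.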
